A study of Homo sapiens with 17 samples.

Results

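The genes described here are UBE2V1, CTPS2 and TTR, each named as the activation target of a single library, with their closest relatives or partners UBE2V2, UBE2N and CTPS1 and the TTR neighbour DSG2. They are 7 of the 57638 annotated genes of the series, and the rule names them without using their measured values, though it was written with earlier results of these data known. Each was followed as the sum of its transcripts and transcript by transcript in all 17 libraries. The cells were K562, a human chronic myeloid leukaemia line. All had received, by electroporation, plasmids of a CRISPR system for gene activation. Treatment with an antisense oligonucleotide followed, and RNA was taken on day 6. The libraries compared here were labelled UBE2V1, 21-CTPS2 and TTR (1 each), GOLGA8N 1, GOLGA8N 2 and 23-GOLGA8N, LAPTM4B 1, LAPTM4B 2 and 22-LAPTM4B, and TRPC5OS, 20-ARSF, E7, ADORA2A and COL6A6 (1 each). Neg, RFP and GFP name no human target and were taken here as the controls. The sources used here do not say what the number prefixes, Neg or E7 mean, which oligonucleotide was used or whether the oligonucleotide was the same in each, nor do they give the guides or the activator. Untreated K562 cells were not analysed here, so every value belongs to cells that had been electroporated and given an oligonucleotide.

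Ubiquitin chains joined through lysine 63 act as scaffolds in signalling and DNA damage tolerance rather than as tags for the proteasome. UBE2N (also called Ubc13) is the conjugating enzyme that builds them. It works as a pair with UBE2V1 or UBE2V2, which resemble conjugating enzymes but lack the catalytic cysteine; UBE2V1 is best known from NF-kappa-B signalling and UBE2V2 from the bypass of damaged DNA. CTPS1 and CTPS2 are the CTP synthases, which make CTP from UTP for RNA, DNA and phospholipid synthesis. CTPS1 is the form that proliferating lymphocytes depend on. TTR (transthyretin) is a plasma protein of liver and choroid plexus that carries thyroxine and, with retinol-binding protein, retinol. It is not a blood cell product. DSG2 (desmoglein 2), a cadherin of the desmosome, lies upstream of TTR on the same strand.

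A CRISPR activator is guided to DNA near a promoter. The sequence before a RefSeq start is therefore shown for UBE2V1 and CTPS2, the targets whose promoters could be matched with the transcripts read here. RefSeq promoters matched 5 of the 7 genes, all but UBE2V2 and TTR. UBE2V1 and CTPS2 each had 2 promoters listed, and 1 of each is shown. Both windows lie inside the annotated span of their gene, which reaches 50115959 for UBE2V1 and 16712936 for CTPS2. The promoter that the guides were aimed at is not known here. The sequences are the 250 bases before the RefSeq start on GRCh38.p14, and capitals mark a GC box (GGGCGG, or CCGCCC on the other strand).
UBE2V1, chr20:50113151-50113400, minus strand: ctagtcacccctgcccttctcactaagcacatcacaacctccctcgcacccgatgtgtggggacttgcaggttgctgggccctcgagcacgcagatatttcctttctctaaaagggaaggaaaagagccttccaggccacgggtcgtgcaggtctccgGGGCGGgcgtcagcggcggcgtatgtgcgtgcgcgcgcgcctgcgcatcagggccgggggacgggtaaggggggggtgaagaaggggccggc
CTPS2, chrX:16712670-16712919, minus strand: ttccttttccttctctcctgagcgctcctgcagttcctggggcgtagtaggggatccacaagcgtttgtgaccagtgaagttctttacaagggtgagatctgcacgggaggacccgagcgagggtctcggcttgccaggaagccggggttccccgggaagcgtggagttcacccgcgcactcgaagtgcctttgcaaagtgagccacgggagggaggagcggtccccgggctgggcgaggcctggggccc
The UBE2V1 window ends 11 bp before the start of UBE2V1-202, the main transcript of the gene in these cells, and the CTPS2 window ends 17 bp before that of CTPS2-201. The UBE2V1 window held 1 GC box, 21 CpG pairs and 65.2% G and C. The CTPS2 window held no GC box, 17 CpG pairs and 63.6% G and C. Neither held a CCAAT box (letters CCAAT) on either strand. Neither held the letters TATAAA of a TATA box on either strand. Among 35116 RefSeq promoter windows, 42.6% held the GC box letters, 32% CCAAT and 10.7% TATAAA. A match of letters is a description and not a bound site.

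Levels are given as CPM (estimated reads scaled to a common total of reads in genes) when a gene is compared between libraries, and as deposited TPM, which is divided by transcript length, when genes are compared with each other. GFP was by far the shallowest library, with 569057 reads; the other 16 held 2252097 (23-GOLGA8N) to 4236396 (20-ARSF), and the median of all 17 was 3222049. A floor of 3 reads corresponds to 5.45 CPM in GFP but to 0.733 CPM in the deepest library, so GFP says little about low genes such as CTPS2 and TTR. The labels call the cells lymphoblasts. All 10 erythroid markers had reads, with a summed level of 4905 to 9461 CPM across libraries. Of 10 lymphocyte markers 4 had at least 1 read in all, summing to 33.7 to 120 CPM, most of it CD3D, while MS4A1, CD79B, CD3E and CD2 were at 0 in every library. The UBE2V1 library had the highest erythroid sum, 9461 CPM, against a median of 7024 CPM over all libraries. Fibroblast markers (4 of 6 with reads) summed to 20.7 to 64.3 CPM and epithelial markers (6 of 6) to 75.6 to 145 CPM. In bulk RNA, fewer cells with a transcript and less transcript per cell cannot be told apart.

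Per unit of transcript length, the ubiquitin genes were the most abundant and close together. UBE2V2 had a median of 20.3 TPM (mean 19.5 ± 4.47, SD, n = 17), UBE2V1 19.7 TPM (20.5 ± 4.4) and UBE2N 17.1 TPM (16.9 ± 2.54). In TPM, those 3 neighbours in the order overlapped within their spread. In CPM, UBE2N averaged 141 ± 18.8, UBE2V2 118 ± 18.9 and UBE2V1 92.8 ± 18.9 (SD, n = 17). UBE2N was above UBE2V1 in every library by CPM. CTPS1 followed at 5.2 TPM (5.77 ± 2.54), then CTPS2 at 1.91 TPM (2.58 ± 2.68) and DSG2 at 1.62 TPM (1.65 ± 0.554). CTPS2 and DSG2 overlapped in TPM. In CPM their order was reversed, with DSG2 at a mean of 27.6 ± 8.82 and CTPS2 at 9.49 ± 5.53. DSG2 was the higher of the pair in every library by CPM. TTR was last, at 0 TPM in the median library and 6.19 TPM in the highest. Reads of a 3′ tag library come from transcript ends, so TPM falls with annotated length for reasons other than abundance. The TPM order is thus approximate, and CPM is given beside it for these genes.

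**Figure D1:**
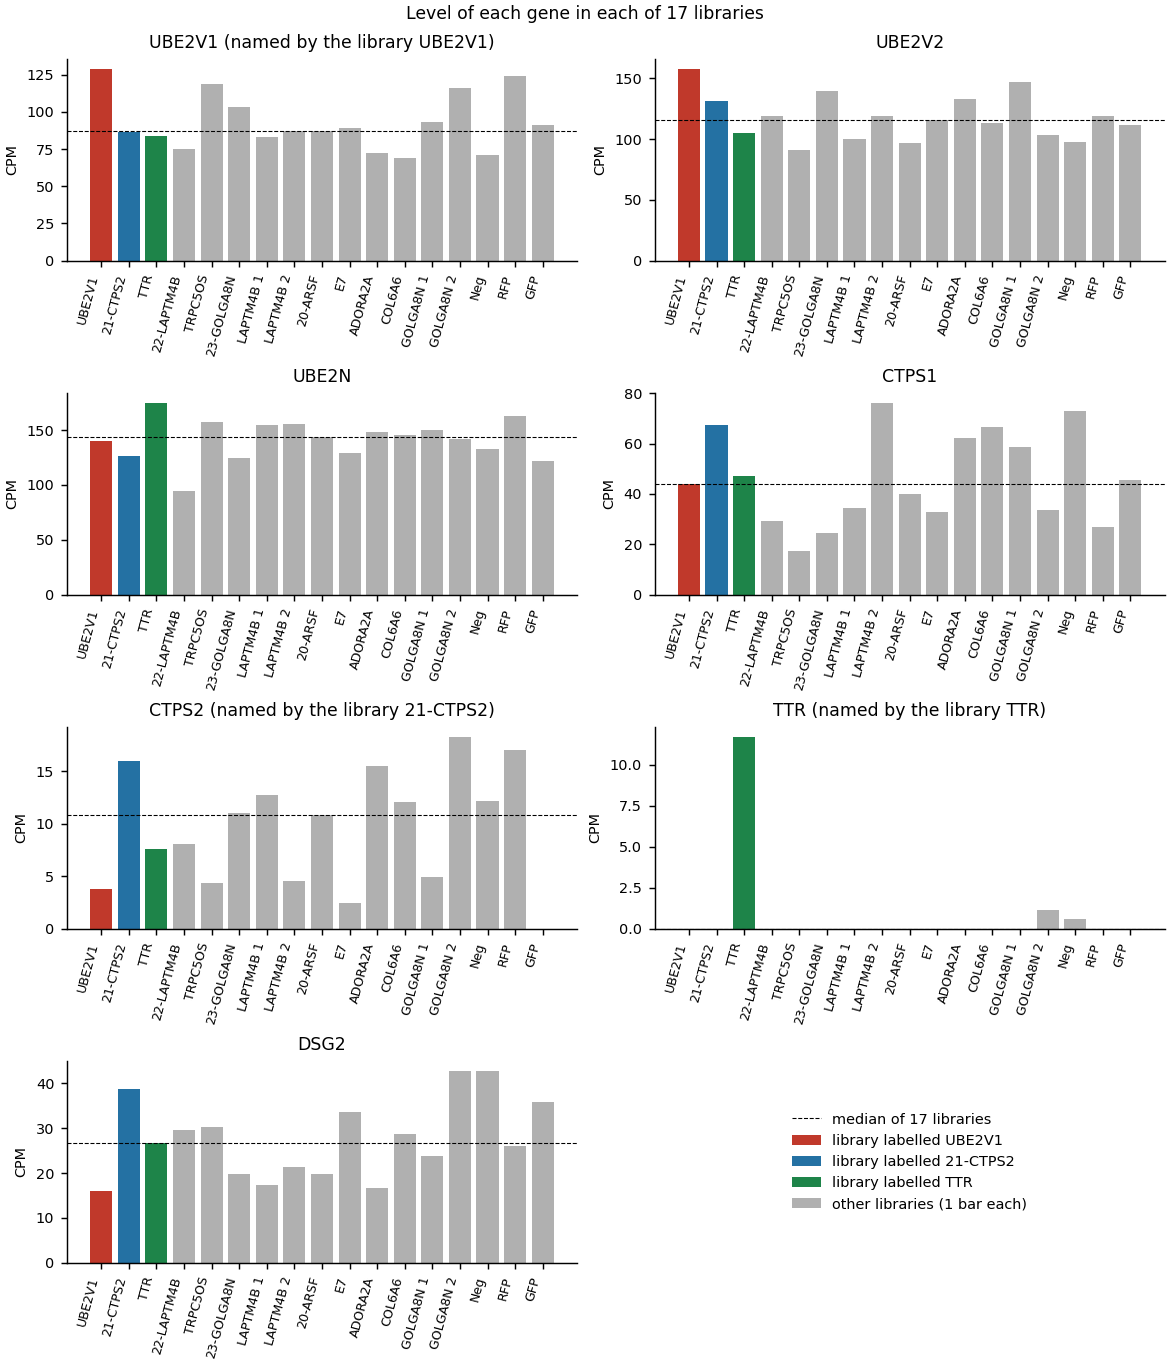
Bars of CPM (vertical axes, linear from 0, each gene with its own scale) for each gene in the 17 libraries (horizontal axes), coloured for the libraries labelled UBE2V1, 21-CTPS2 and TTR and grey for the others, with a dashed line at the median of 17. UBE2V1 is highest in its own library at 129 CPM, CTPS2 stands at rank 3 in its own at 16 CPM, and TTR reaches 11.7 CPM in its own library and at most 1.15 CPM elsewhere.

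TTR was nearly silent outside the library labelled for it. That library held 40 TTR reads, or 11.7 CPM (95% exact Poisson interval 8.39 to 16, counting error only). GOLGA8N 2 held 3 reads (1.15 CPM), Neg held 2 (0.611 CPM), and the other 14 libraries held none. A count of 0 allows up to 3 reads, which is 0.733 CPM in the deepest library and 5.45 CPM in GFP. The 16 other libraries averaged 0.11 ± 0.316 CPM (SD, n = 16), so the TTR library was 107 times their mean, and 288 times when GOLGA8N 2 was left out. Over pooled reads the ratio was 111 (95% exact interval 43.7 to 359, counting error only). The TTR library did not overlap any other. With 1 library among 17, the exact one-sided permutation p was 0.0588, the smallest this design can give, and 0.0882 after adjustment over the 3 targets, so the difference did not pass 0.05.

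Of all TTR reads, 95.6% lay on a single transcript. TTR-206, a coding transcript of 825 nucleotides at chromosome 18, 31557010 to 31598833 on the plus strand (GRCh38), took all 40 reads in the TTR library and all 3 in GOLGA8N 2. The 2 reads in Neg were on TTR-205, which starts further downstream at 31591767. The remaining 4 annotated TTR transcripts had no reads. Because estimated reads came from a quantifier that divides reads among transcripts with shared sequence, the choice between TTR-206 and shorter forms with the same end is uncertain.

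Across all genes, edgeR set the TTR library against the other 16, with the lone library assumed to vary like them. TTR had a log2 fold change of 6.26 ± 1.59 (SE) and stood at rank 4 of 16863 genes by p, but its edgeR adjusted p was 0.804. TTR entered that fit only through its own library, so its place among the genes tested is no independent support. Members called at adjusted p under 0.05 were 0 of 7, where 0.00593% of all genes tested were called, and 1 of 7 (TTR) had an unadjusted p under 0.05, where 2.13% of all genes did. The call on TTR depended on the tool and the filter. The log2 fold change was 5.67 with limma-voom, 6.26 with edgeR without a filter on low counts, and 6.54 with DESeq2. Limma-voom and the unfiltered edgeR fit called TTR, and DESeq2 did not. Both settings that called TTR also called far more genes in this library than the main fit, most of them higher. Leaving out each other library in turn gave 6.17 to 7.10, with edgeR adjusted p from 0.232 to 1. Genes with the TTR pattern were scarce: in the TTR library, TTR was the sole gene of 57638 (0.00173%) at or above 11.7 CPM with no other library above 1.15 CPM. Since TTR set both limits, it had to be counted. The same limits applied to each other library in turn found a median of 0 genes and at most 17, in GFP.

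Hepatocyte markers were at or near 0 in the TTR library. Of 11 hepatocyte markers, 5 had reads in any library, and their sum was 2.64 CPM in the TTR library, against 0 to 3.82 CPM over all libraries. In the TTR library FGB was at 2.06 CPM (7 of its 15 reads) and APOA1 at 0.587 CPM (2 of its 3 reads). The other markers, ALB, APOA2, SERPINA1, AHSG, FGA, FGG, HP, APOH and AMBP, were at 0 there. Among 21 liver plasma protein and transcription factor genes, 14 had reads and 7 could be tested, of which 4 were higher and 3 lower in the TTR library, none called (median log2 fold change 0.15, against -0.06 over all genes tested). HNF4A, a liver nuclear receptor, was at 6.17 CPM in the TTR library and at 0 to 5.14 CPM in the others (log2 fold change 2.90 ± 1.93). TF, the iron carrier transferrin, was at 11.3 CPM in the TTR library, against 0 to 14.5 CPM in the others (0.70 ± 1.08). CEBPA, a myeloid and liver transcription factor, was at 2.35 CPM in the TTR library, against 1.51 to 10 CPM in the others (-0.85 ± 1.36). The edgeR adjusted p was 1 for these 3 genes.

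Genes that handle the cargo of transthyretin did not pass the test either. Of 16 genes for retinol and thyroid hormone transport and response, 9 were tested; 7 had a positive and 2 a negative log2 fold change in the TTR library, with a median of 0.38. The filter lets in a gene that reaches the minimum in a single library, so a low gene that is high in the TTR library is let in by that value. THRA, the thyroid hormone receptor alpha, was at 53.2 CPM in the TTR library, above the 17.7 to 41.3 CPM of the others (log2 fold change 0.76 ± 0.389). STRA6, the receptor for retinol-binding protein, was at 12.3 CPM in the TTR library, against 0 to 7.58 CPM in the others (2.14 ± 1.26). SLC16A10, a carrier of aromatic amino acids and thyroid hormone, was at 9.06 CPM in the TTR library, against 0 to 5.79 CPM in the others (2.63 ± 1.6). Of all genes tested, 6.08% were highest in the TTR library. THRA, STRA6 and SLC16A10 were among them, but they were named for their low p within the list and so give no share of it. Their edgeR adjusted p was 1.

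DSG2 did not stand apart in the TTR library. Its span, 31498043 to 31549008 on chromosome 18, ends 8002 bp before the start of TTR-206, where the annotated TTR span begins. TTR-205 begins further away, at 31591767. All DSG2 reads were on DSG2-201. DSG2 was at 26.6 CPM in the TTR library, against 15.9 to 42.8 CPM in the other 16 with a median of 27.4, which puts the TTR library at rank 9 of 17. The log2 fold change was -0.06 ± 0.477 (edgeR adjusted p = 1). DSG3, the next desmoglein gene, was at 2.48 CPM in the TTR library and 0 to 4.38 CPM in the others. DSG2-AS1, whose start lies 99 bp before that of TTR-206 on the opposite strand, had no read in the TTR library and 1 read elsewhere. B4GALT6, 23226 bp beyond TTR, had none in the TTR library and 12 elsewhere. Of 13 desmosome genes 10 were tested, with 4 higher and 6 lower in the TTR library and none called (median log2 fold change -0.18). PKP3 (plakophilin 3) was at 290 CPM in the TTR library, against 229 to 487 CPM in the others. JUP (plakoglobin) was at 129 CPM in the TTR library, against 107 to 333 CPM in the others. PERP, a desmosomal membrane protein, was at 5.58 CPM in the TTR library, against 0 to 5.87 CPM in the others. DSG2 itself varied among libraries, from 15.9 CPM in the UBE2V1 library to 42.8 CPM in Neg and in GOLGA8N 2. Over the 16 libraries without GFP its SD of 8.84 CPM was 2.94 times what counting error gives.

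UBE2V1 was higher in its own library than in any other, by a smaller margin. The UBE2V1 library had 340 reads, or 129 CPM (95% exact Poisson interval 116 to 143, counting error only). The other 16 ran from 68.7 CPM in COL6A6, with a median of 86.9, to 124 CPM in RFP, and averaged 90.6 ± 16.9 CPM (SD, n = 16). The RFP value lies inside the counting interval of the UBE2V1 library, so the lead over the next library was within counting error. The UBE2V1 library was 1.42 times the mean of the others. The exact one-sided permutation p was 0.0588, again the smallest possible, and 0.0882 adjusted over the 3 targets. In deposited TPM the order was different: UBE2V1 was at 23.1 TPM in its own library, 1.13 times the mean of the others, with 23-GOLGA8N highest at 28.4 TPM (exact one-sided permutation p = 0.294).

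The other partner of UBE2N also had its highest CPM in the UBE2V1 library. UBE2V2 was at 158 CPM there (95% exact Poisson interval 143 to 174, counting error only), against 91.3 CPM (TRPC5OS) to 147 CPM (GOLGA8N 1) in the other 16, with a median of 114 and a mean of 115 ± 16.3 CPM (SD). The GOLGA8N 1 value lies inside that interval. In deposited TPM the order was again different, with UBE2V2 at 26.5 TPM in the UBE2V1 library and 26.8 TPM in GOLGA8N 1. In CPM, UBE2V1 and UBE2V2 were both above every other library, where 2.97% of all genes tested had their highest value in the UBE2V1 library, and 3.74% of genes at a similar level to UBE2V1. UBE2N, the catalytic partner, was at 140 CPM in the UBE2V1 library, against 94.3 to 175 CPM in the others, at rank 11 of 17. In the edgeR fit of the UBE2V1 library, UBE2V1 had a log2 fold change of 0.65 ± 0.277 (SE), UBE2V2 0.60 ± 0.259 and UBE2N 0.13 ± 0.26. The edgeR adjusted p was 0.814 for UBE2V1, 0.814 for UBE2V2 and 0.935 for UBE2N. In that fit 0 of 7 members and 0% of genes tested were called. At an unadjusted p under 0.05 there were 2 of 7 members (UBE2V1 and UBE2V2), where 4.33% of all genes passed; DESeq2 and limma-voom called no member either. TMM scaling raised the UBE2V1 library by 0.13 on the log2 scale relative to CPM, which is part of both fold changes. The erythroid marker sum was also highest in the UBE2V1 library (9461 CPM), and its part in these levels was not tested.

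**Figure D2:**
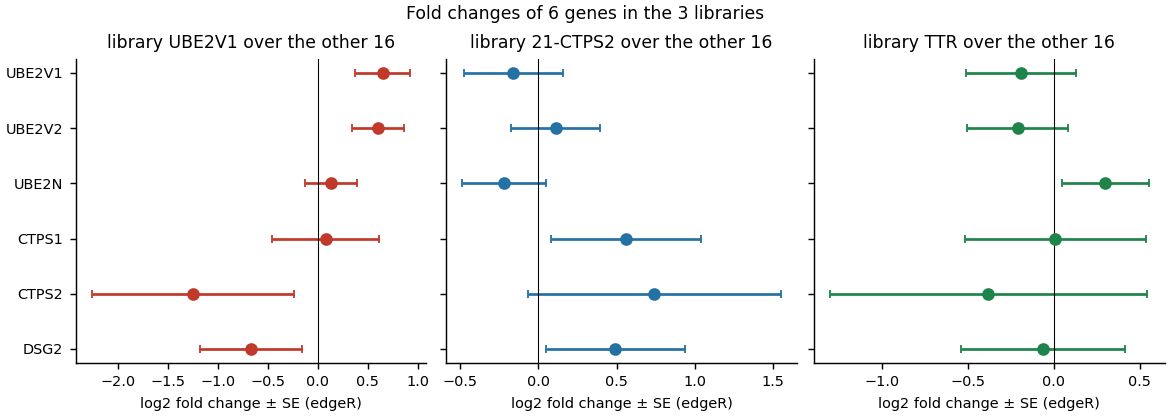
Log2 fold changes from edgeR (horizontal axes, scaled separately; points with bars of 1 SE) of 6 genes in the libraries labelled UBE2V1, 21-CTPS2 and TTR, each over the other 16; TTR itself is not drawn. UBE2V1 and UBE2V2 stand at 0.65 and 0.60 in the UBE2V1 library, CTPS2 at 0.74 in the 21-CTPS2 library and DSG2 at -0.06 in the TTR library, and none passed an adjusted p of 0.05.

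The transcripts assigned to UBE2V1 differed between libraries more than the gene did. Over all libraries, 72.2% of the 4606 UBE2V1 reads were on UBE2V1-202 (1973 nucleotides, chromosome 20, 50081124 to 50113139, minus strand) and 19.2% on UBE2V1-207. In the UBE2V1 library UBE2V1-202 held 291 reads (110 CPM), above the 0.00138 to 87.3 CPM of the other 16. UBE2V1-222, a longer coding transcript with its start at 50113198, inside the promoter window shown above, held 47.7 reads (18.1 CPM) in the UBE2V1 library. Outside that library UBE2V1-222 had reads in GOLGA8N 2 alone, at 10.4 CPM. UBE2V1-207 had no reads in the UBE2V1 library, but it held 95.6% of UBE2V1 reads in TRPC5OS and 98% in LAPTM4B 2. In GFP, UBE2V1-203 held 85.4 CPM. These transcripts cannot be told apart by their ends: UBE2V1-202 shares its last 1791 bases with UBE2V1-203, UBE2V1-205, UBE2V1-207 and UBE2V1-222, so reads from the end match each of them. The split between them is the estimate of the quantifier.

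Counting only transcripts with the shared end, at position 50081124, avoids that split, an alternative chosen after seeing the data. They held 84.3% (23-GOLGA8N) to 100% of UBE2V1 reads, and 99.5% in the UBE2V1 library. Their level was 128 CPM in the UBE2V1 library, against 62.9 to 120 CPM in the other 16 (mean 85.8 ± 16.3, SD), and the UBE2V1 library stayed highest. The annotated readthrough gene TMEM189-UBE2V1 carries the same end and was assigned no reads in any library, which is also an estimate of the quantifier. All 15 annotated UBE2V1 pseudogenes, the UBE2V2 pseudogenes, UBE2NP1 and UBE2NL were also at 0 in every library. UBE2V2 reads were divided over UBE2V2-204 (37.4%), UBE2V2-207 (31.4%) and UBE2V2-205 (31.1%). UBE2N reads were mostly on UBE2N-205 (94.1%).

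**Figure D3:**
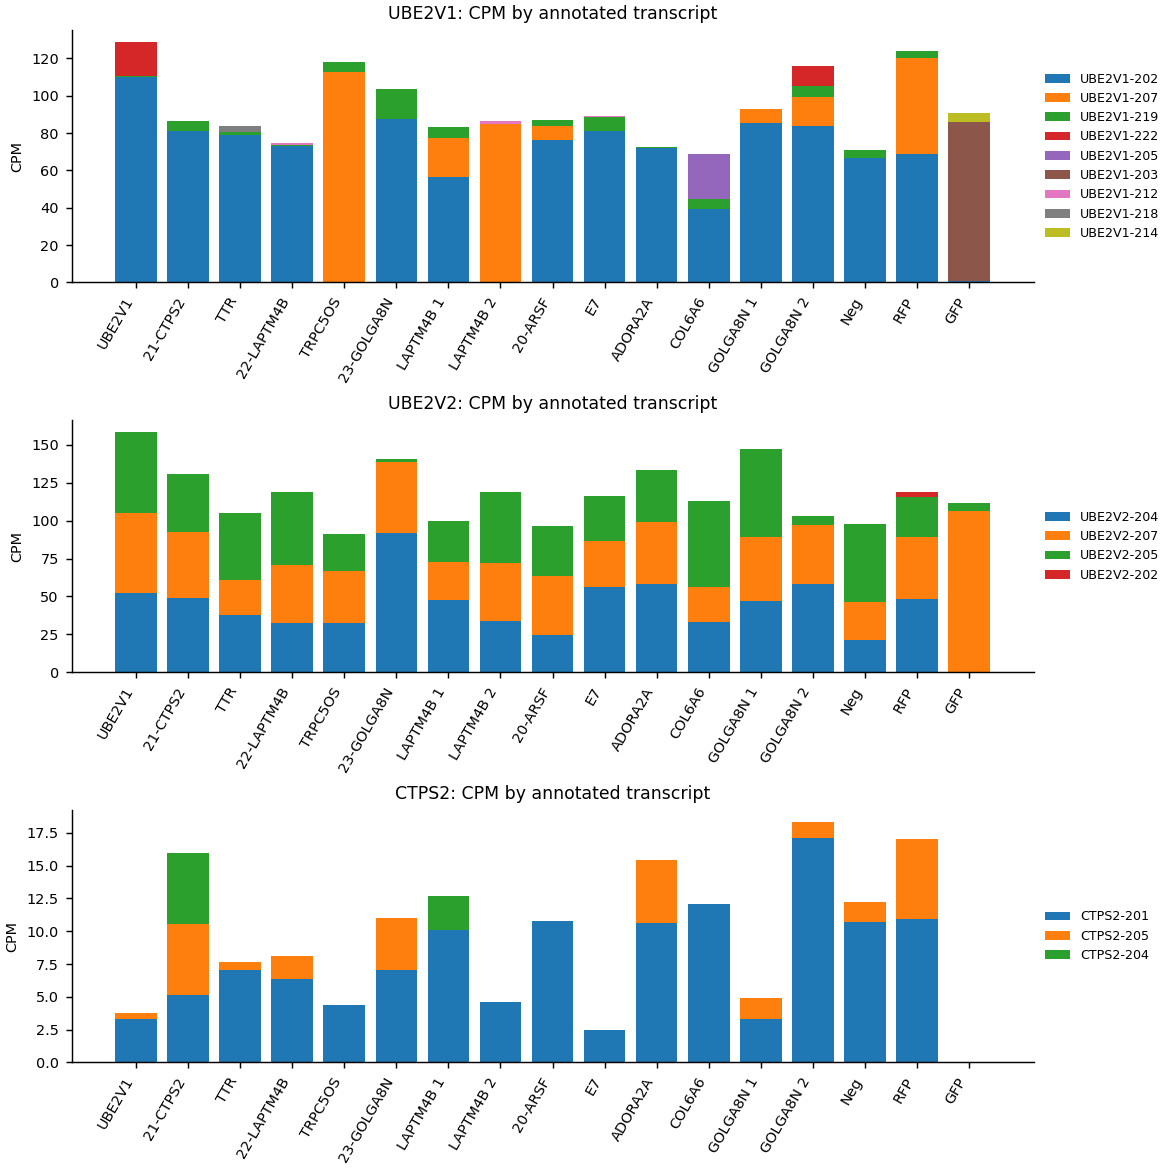
Stacked bars of CPM per annotated transcript (vertical axes, linear from 0) for UBE2V1, UBE2V2 and CTPS2 in the 17 libraries (horizontal axes), each colour a transcript of that gene. UBE2V1-202 fills most UBE2V1 bars, UBE2V1-207 takes 95.6% in TRPC5OS and 98% in LAPTM4B 2, and CTPS2-204 appears in the 21-CTPS2 library (5.45 CPM) and in LAPTM4B 1 (2.59 CPM).

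Genes around UBE2V1 lay within the range of the other libraries. TMEM189 (plasmanylethanolamine desaturase) lies 2295 bp upstream of the annotated UBE2V1 span, which reaches 50115959. TMEM189 was at 31.9 CPM in the UBE2V1 library, against 6.29 to 40.8 CPM in the others (log2 fold change 0.52 ± 0.509). CEBPB, a transcription factor of myeloid cells at a distance of 74775 bp, was at 45.5 CPM in the UBE2V1 library, against 40 to 108 CPM in the others (-0.38 ± 0.38). SNAI1, a transcription factor of epithelial plasticity 92238 bp away, was at 4.93 CPM in the UBE2V1 library, against 0.803 to 11.5 CPM in the others (-0.23 ± 1.02). The edgeR adjusted p ran from 0.814 to 0.974 for these 3 genes.

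The wider ubiquitin genes went both ways. Of 24 genes for lysine 63 chain signalling and damage tolerance, all tested, 10 were higher and 14 lower in the UBE2V1 library. Their median log2 fold change was -0.12. The median was -0.30 over all 16863 genes, most of them low, and 0.001 over the 7310 genes averaging 10 CPM or more. CHFR, a mitotic checkpoint ubiquitin ligase, was at 3.79 CPM in the UBE2V1 library, against 3.44 to 25.1 CPM in the others (-1.73 ± 0.852). IKBKG (NEMO), which binds ubiquitin chains in NF-kappa-B signalling, was at 26.2 CPM in the UBE2V1 library, against 32.1 to 77.7 CPM in the others (-0.83 ± 0.435). STUB1, a chaperone-bound ubiquitin ligase, was at 245 CPM in the UBE2V1 library, against 163 to 263 CPM in the others (0.40 ± 0.237). Of 28 other conjugating enzymes, all tested, 10 were higher and 18 lower, with a median of -0.09. UBE2H was at 12.5 CPM in the UBE2V1 library and 17.9 to 55.2 CPM in the others (-1.27 ± 0.535). UBE2T, the conjugating enzyme of the Fanconi anaemia pathway, was at 27.7 CPM in the UBE2V1 library and 29.1 to 96.5 CPM in the others (-0.81 ± 0.436). UBE2Z was at 5.69 CPM in the UBE2V1 library and 4.41 to 23.8 CPM in the others (-1.28 ± 0.759). IKBKG, UBE2H and UBE2T, named for their low p within their lists, were lowest in the UBE2V1 library, as were 4.83% of all genes tested. The edgeR adjusted p was 0.814 for all 6 named genes.

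CTPS2 was not highest in the library labelled for it. The 21-CTPS2 library had 44 reads, or 16 CPM (95% exact Poisson interval 11.6 to 21.4, counting error only). The other 16 ran from 0 CPM in GFP, with a median of 9.43, to 18.3 CPM in GOLGA8N 2, and averaged 9.09 ± 5.44 CPM (SD, n = 16). GOLGA8N 2 (18.3 CPM) and RFP (17 CPM) were above the 21-CTPS2 library, and ADORA2A (15.5 CPM) was just below it. The 21-CTPS2 library was 1.76 times the mean of the others, with an exact one-sided permutation p of 0.176, also 0.176 after adjustment over the 3 targets. The edgeR log2 fold change was 0.74 ± 0.81 (SE; adjusted p = 0.791), with an SE larger than the fold change itself. Members called were 0 of 7, where 0.00593% of genes tested were called, and 0 of 7 had an unadjusted p under 0.05, where 4.74% of genes did. Genes highest in the 21-CTPS2 library made up 6.72% of those tested.

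By transcript, the CTPS2 reads of the 21-CTPS2 library were spread unlike those of most libraries. CTPS2-201, the full-length coding transcript of 3953 nucleotides, held 78.5% of CTPS2 reads over all libraries. In the 21-CTPS2 library it held 14.2 reads (5.16 CPM), against 0 to 17.1 CPM and a median of 7.05 CPM in the other 16, and 10 of those were higher. CTPS2-204, a 733-nucleotide transcript inside the gene at chromosome X, 16638487 to 16670633, held 15 reads (5.45 CPM) in the 21-CTPS2 library. It was seen elsewhere in LAPTM4B 1 alone, at 2.59 CPM. CTPS2-205, a non-coding transcript of 521 nucleotides, held 14.8 reads (5.37 CPM), against 0 to 6.14 CPM in the others. As the quantifier assigned them, most CTPS2 reads of the 21-CTPS2 library were on short transcripts. With 44 reads and transcripts that share sequence, this split is an estimate. Division by length weights those short transcripts up: in deposited TPM, CTPS2 was at 9.13 TPM in the 21-CTPS2 library, ahead of RFP at 7.58 TPM, 4.2 times the mean of the others (exact one-sided permutation p = 0.0588).

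CTPS1, the other CTP synthase, ranked high in the 21-CTPS2 library without passing the test. It was at 67.5 CPM there, against 17.4 CPM (TRPC5OS) to 76.2 CPM (LAPTM4B 2) in the others, with a median of 42.1. Neg (73 CPM) and LAPTM4B 2 (76.2 CPM) were higher. The log2 fold change was 0.56 ± 0.482 (edgeR adjusted p = 0.791). CTPS1 varied more than most of the genes described. Over the 16 libraries without GFP it averaged 45.9 ± 19 CPM, an SD 4.85 times that of counting error, against 3.5 times for UBE2V1, 3.11 for UBE2V2, 2.71 for UBE2N, 2.8 for CTPS2 and 5.52 for TTR, whose spread is that of its own library. CTPS1-218 held 90.1% of its reads.

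Among the neighbours of CTPS2, SYAP1, which starts 6696 bp upstream on the opposite strand, was at 50.6 CPM in the 21-CTPS2 library, against 40.1 to 109 CPM in the others (log2 fold change -0.78 ± 0.342, edgeR adjusted p = 0.791). TXLNG, 73491 bp away, was at 17.8 CPM in the 21-CTPS2 library, against 8.4 to 24.8 CPM in the others (0.17 ± 0.593). S100G, a calcium-binding protein gene inside CTPS2 on the opposite strand, had no reads in any library. Of 24 other pyrimidine synthesis and salvage genes, 10 were higher and 14 lower in the 21-CTPS2 library, none called, with a median log2 fold change of -0.06, against -0.25 over all genes and -0.04 over genes averaging 10 CPM or more. NME1, a nucleoside diphosphate kinase that makes UTP and CTP from the diphosphates, was at 146 CPM in the 21-CTPS2 library, below the 152 to 286 CPM of the others (-0.59 ± 0.274). DTYMK (thymidylate kinase) was at 40.7 CPM in the 21-CTPS2 library, against 36.8 to 66.2 CPM in the others (-0.51 ± 0.356). DHODH, which makes orotate, was at 8.39 CPM in the 21-CTPS2 library, against 7.16 to 27.4 CPM in the others (-0.87 ± 0.709). The edgeR adjusted p was 0.791 for these 3 genes.

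The purine list of 15 genes had 14 tested, 8 higher and 6 lower, none called, with a median log2 fold change of 0.06. PRPS1, which makes the phosphoribosyl pyrophosphate used by both nucleotide pathways, was at 73.3 CPM in the 21-CTPS2 library, below the 121 to 205 CPM of every other library (-1.15 ± 0.303, edgeR adjusted p = 0.428). PFAS, an enzyme of purine ring synthesis, was at 20 CPM in the 21-CTPS2 library, against 21.6 to 83.6 CPM in the others (-1.17 ± 0.496). PPAT, the first committed enzyme of purine synthesis, was at 26.1 CPM in the 21-CTPS2 library, above the 3.91 to 21.8 CPM of the others (1.08 ± 0.611). The edgeR adjusted p was 0.791 for PFAS and PPAT. NME1, PRPS1 and PFAS, named for their low p within their lists, were lowest in the 21-CTPS2 library, as were 3.45% of all genes tested. PPAT, named in the same way, was highest there, as were 6.72% of all genes tested.

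Each target library also gives values for the members it was not aimed at. In the UBE2V1 library CTPS2 was at 3.79 CPM (rank 15 of 17) and DSG2 at 15.9 CPM, the lowest of all, against 16.6 to 42.8 CPM in the others (log2 fold change -0.67 ± 0.51, edgeR adjusted p = 0.814). In the TTR library UBE2N was at 175 CPM, the highest, against 94.3 to 163 CPM in the others (0.30 ± 0.253, edgeR adjusted p = 1). In the 21-CTPS2 library DSG2 was at 38.7 CPM, at rank 3, against 15.9 to 42.8 CPM in the others (0.49 ± 0.444, edgeR adjusted p = 0.791). These fits share most of their libraries, so their values are given side by side and not compared. Of all genes tested, 4.83% were lowest in the UBE2V1 library and 6.08% highest in the TTR library.

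GOLGA8N and LAPTM4B were the labels with 3 libraries each, set against Neg, RFP and GFP. UBE2V1 was at 93, 116 and 103 CPM in GOLGA8N 1, GOLGA8N 2 and 23-GOLGA8N (mean 104 ± 11.4, SD, n = 3). It was at 83.4, 86.8 and 74.9 CPM in LAPTM4B 1, LAPTM4B 2 and 22-LAPTM4B (81.7 ± 6.1, n = 3), and at 70.9, 124 and 90.9 CPM in Neg, RFP and GFP (95.3 ± 26.9, n = 3). All 6 GOLGA8N and LAPTM4B values lay within the range of the controls. The log2 fold change of UBE2V1 against the controls was 0.26 ± 0.242 for GOLGA8N (edgeR adjusted p = 0.978) and -0.10 ± 0.241 for LAPTM4B (edgeR adjusted p = 1). UBE2V2 averaged 130 ± 23.7 CPM in GOLGA8N, 113 ± 10.9 CPM in LAPTM4B and 110 ± 10.7 CPM in control libraries. Its log2 fold change was 0.40 ± 0.216 for GOLGA8N (edgeR adjusted p = 0.915) and 0.18 ± 0.215 for LAPTM4B (edgeR adjusted p = 1). UBE2N averaged 139 ± 13.2 CPM in GOLGA8N, 135 ± 35.1 CPM in LAPTM4B and 139 ± 21.1 CPM in control libraries.

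CTPS1 averaged 38.9 ± 17.7 CPM in GOLGA8N, 46.6 ± 25.7 CPM in LAPTM4B and 48.4 ± 23.3 CPM in control libraries, and the 3 groups overlapped. CTPS2 averaged 11.4 ± 6.72 CPM in GOLGA8N, 8.44 ± 4.05 CPM in LAPTM4B and 9.75 ± 8.78 CPM in control libraries, where GFP had 0 reads. DSG2 averaged 28.8 ± 12.3 CPM in GOLGA8N, 22.7 ± 6.19 CPM in LAPTM4B and 34.9 ± 8.43 CPM in control libraries; LAPTM4B against the controls gave a log2 fold change of -0.47 ± 0.401 (edgeR adjusted p = 1). TTR did not pass the filter. Of the 6 members tested, 0 were called for GOLGA8N, where 0.0168% of 11916 genes were, and 0 for LAPTM4B, where 0% were. None had an unadjusted p under 0.05, against 5.68% of genes for GOLGA8N and 3.94% for LAPTM4B, and DESeq2 and limma-voom called none of the members. Both comparisons use the same 3 control libraries.

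**Figure D4:**
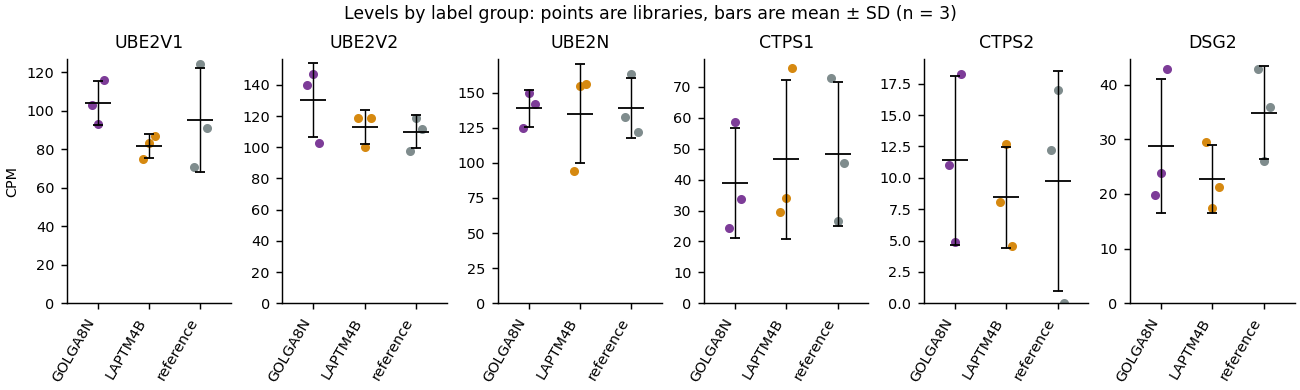
CPM of UBE2V1, UBE2V2, UBE2N, CTPS1, CTPS2 and DSG2 (vertical axes, linear from 0) in GOLGA8N, LAPTM4B and control libraries (Neg, RFP and GFP, drawn as reference), with a point for each library and bars for the mean and SD of 3. GOLGA8N and LAPTM4B libraries each overlap the control libraries in every panel, and the control libraries span 70.9 to 124 CPM for UBE2V1.

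The number prefix is carried by 4 libraries. Mean levels of UBE2N, UBE2V1, CTPS1, DSG2 and TTR were lower in them, and those of CTPS2 and UBE2V2 were higher. UBE2N was at 94.3 CPM in 22-LAPTM4B and at 125 to 144 CPM in the other prefixed libraries (mean 122 ± 20.7, SD, n = 4). The unprefixed libraries were at 122 to 175 CPM (147 ± 14.4, n = 13), so 22-LAPTM4B alone lay below their range. CTPS2 averaged 11.5 CPM in prefixed and 8.89 CPM in unprefixed libraries, and UBE2V2 122 and 116 CPM. No test was fitted to these differences. UBE2V1 averaged 88 ± 11.7 CPM in prefixed and 94.3 ± 20.7 CPM in unprefixed libraries, and TTR was at 0 in all 4 prefixed ones. The 21-CTPS2 library, with CTPS2 at 16 CPM, is prefixed and has 3 prefixed libraries beside it. There CTPS2 was at 8.1 CPM (22-LAPTM4B), 11 CPM (23-GOLGA8N) and 10.8 CPM (20-ARSF). Any gene with reads is highest in some library of these 4, so this order alone says little.

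Across the 17 libraries the members did not move as a unit. Spearman's rho of CPM was 0.23 between UBE2V1 and UBE2V2, 0.09 between UBE2V1 and UBE2N, -0.18 between UBE2V2 and UBE2N and -0.57 between UBE2V1 and CTPS1, given as descriptions over libraries that share depth and scaling. Among 6919 genes averaging 10 CPM or more with a read in every library, the patterns most like UBE2V1 were those of C9orf40 (rho 0.73), CD164 (0.70) and PFDN1 (0.69). For UBE2V2 they were SEC63 (0.80), VTI1B (0.74) and RTCB (0.71), and for UBE2N they were ZNF512B (0.82), NME2 (0.80) and PTCD3 (0.79). For CTPS1 they were MRPL22 (0.77), CCDC6 (0.75) and CPTP (0.75). For DSG2 they were MLLT11 (0.85), DCTN4 (0.83) and RAC2 (0.82). The highest of 6919 correlations over 17 libraries is high by selection. CTPS2 and TTR average under 10 CPM and were left out.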

How the data were processed

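The 17 libraries were 3′ tag libraries primed with oligo-dT, with a 12 bp molecular identifier in the primer, per the labels' protocols. Salmon's layout, per the file headers, gives 228297 transcripts a library with deposited estimated counts (expected counts, fractional where a read was divided) and TPM. TPM were deposited beside an effective transcript length, per the file headers. Named in the submitters' processing notes are STAR 0.7.2 (a version that is in doubt, since Salmon 0.7.2 stands beside it), featureCounts, UMI-tools, GRCh38 and hg38. The strand setting, and whether molecular identifiers were collapsed before quantification, are not given in the sources used here. Genes that overlap on opposite strands are thus uncertain. If identifiers were not collapsed, repeated molecules add to the spread; intervals and floors of 3 reads cover counting error only.

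Gene sums of the estimated counts used GENCODE 29 (GRCh38), with identifier versions ignored: 205336 transcripts matched, with 96.4% to 96.7% of the reads, and unmatched ones (3.32% to 3.6%) stayed out. CPM were computed from these sums, and sums were rounded for tests. The targets were compared between their own library and the other 16 by exact one-sided permutation tests, adjusted over 3 targets by Benjamini-Hochberg. Across genes, edgeR 4.0.16 in R 4.3.3 (TMM, filterByExpr, robust quasi-likelihood test, Benjamini-Hochberg adjustment, threshold 0.05) was fitted to each own library against the other 16 (16863 genes) and to 9 libraries for GOLGA8N and LAPTM4B (11916 genes). SE is the log2 fold change divided by the square root of F. The fits of each own library were tested on simulated data with known changes and missed most of the smaller ones. An uncalled gene may therefore still have changed. Alternatives were DESeq2 1.42.0, limma-voom (limma 3.58.1), other size factors, filters, units and gene definitions, libraries with the same prefix status, and leaving out each library.

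Since no label states separate cultures, the p-values reflect the spread among these libraries alone, and that spread may be technical. Members and lists were chosen with earlier results of these data known. Besides members, the named genes were related copies, genes within 100 kb of a target, the called genes of each fit (up to 5, or the 3 of lowest p), up to 3 members of lowest p per list, the 3 most similar genes per member averaging 10 CPM, and cell type markers. Promoter sequences are from RefSeq (GRCh38.p14).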

Additional observations from a re-analysis of the deposited data

How the results depend on the processing

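The own-library ratios kept their direction under all alternatives run. UBE2V1 ranged from 1.13 to 1.57 over units, scalings, library sets and gene definitions and from 1.4 to 1.46 when single libraries were left out. Adding the readthrough gene or the pseudogenes could not move the UBE2V1 ratio, since they had no reads. CTPS2 ranged from 1.6 to 4.2 and from 1.65 to 1.89, and TTR from 80.2 to 109 and from 100 to 288. Counts of called genes moved with the tool and filter. The UBE2V1 library had 0 with edgeR, 8 with DESeq2 (all lower), 16 with limma-voom (all higher) and 84 without a filter (70 higher, 14 lower). The 21-CTPS2 library had 1, but 0 with DESeq2, the filter blind to the groups or DESeq2 size factors, 4 without GFP, 9 against prefixed libraries, 38 with limma-voom and 107 without a filter. The TTR library had 1 (lower), but 260 with limma-voom (258 higher, 2 lower) and 206 without a filter (200 higher, 6 lower). GOLGA8N had 2, but 10 with DESeq2, 0 with limma-voom, 42 without a filter, 1 with DESeq2 size factors and 7 in unprefixed libraries. LAPTM4B had 0, but 1 with DESeq2, 25 without a filter and 2 in unprefixed libraries. Leaving out single libraries gave 0 to 4 for 21-CTPS2 (4 without GFP), 1 to 3 for TTR (3 without Neg), 1 to 6 for GOLGA8N (6 without 22-LAPTM4B) and 0 to 1 for LAPTM4B (1 without Neg or 22-LAPTM4B). The cause was not tested.

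Of 328 alternatives over 19 member results, 309 kept direction and call, 2 made TTR called (limma-voom and no filter, given above) and 17 changed direction. The filter blind to the groups removes TTR. DSG2 in the TTR library was 0.02 with limma-voom, and CTPS1 and DSG2 in GOLGA8N were each 0.08 in unprefixed libraries. Leaving out single libraries gave, for GOLGA8N, -0.60 to 0.35 for CTPS1 and -0.52 to 0.09 for DSG2 (sign changed without Neg or 23-GOLGA8N) and -0.29 to 0.79 for CTPS2 (without GFP or GOLGA8N 2). For LAPTM4B it gave -0.27 to 0.20 for UBE2V1 (sign changed without RFP), -0.04 to 0.27 for UBE2N (without GFP, LAPTM4B 1 or LAPTM4B 2), and -0.43 to 0.58 for CTPS1 and -0.66 to 0.35 for CTPS2 (without RFP or LAPTM4B 2). None of these values was called. No paired analysis was possible because the control labels carry no replicate numbers and each target has 1 library. Depth limits CTPS2 and TTR most: 3 reads in GFP are 5.45 CPM.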

Other observations

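The genes with the lowest p in the 3 target libraries lay outside the ubiquitin, CTP and transthyretin genes. In the TTR library CANX (calnexin, a chaperone of the endoplasmic reticulum) fell to 45.4 CPM, against 107 to 189 CPM in the other 16, a log2 fold change of -1.71 ± 0.31 and the sole call of that fit (edgeR adjusted p = 0.0194). In the 21-CTPS2 library the sole call was RNU6-33P, a U6 snRNA copy, at 16.3 CPM (44.9 reads) with no reads in any other library (edgeR adjusted p = 0.0416). It passed the filter only through the library where it is high, and with the filter blind to the groups no gene was called there. DESeq2 called no gene there, nor did edgeR when any of 13 of the other 16 libraries was left out, and U6 copies share sequence, so its reads are uncertain. In the UBE2V1 library edgeR called none, DESeq2 called 8 genes, all lower, and limma-voom 16, all higher. HBA2, alpha globin, was at 1675 CPM, against 765 to 1287 CPM in the others (log2 fold change 0.85 ± 0.194, edgeR adjusted p = 0.205), and may share reads with its near-identical copy. KLHL26 and FAM122C had no reads in the UBE2V1 library, against 6.01 to 31.2 CPM and 5.36 to 32.8 CPM in the others (edgeR adjusted p = 0.152 and 0.205).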
